A study of Mus musculus with 14 samples.

Results

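The Slc25 genes encode the mitochondrial carrier family, and 45 of them were followed in ileum mucosa RNA of WT and IKO mice. Members were taken by name alone, as protein-coding genes named Slc25a plus a number, out of 54532 genes counted. Mitochondrial carriers with other names, such as Ucp2, were therefore not among them. The rule left out Slc25a1 and Slc25a20, so that 45 of 47 such genes remained. The rule reads names and biotypes, not levels.

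Mitochondrial carriers sit mostly in the inner mitochondrial membrane, which is closed to most polar and charged molecules. Each carrier is a small protein that opens to one side of the membrane at a time and moves 1 class of substrate, often by exchange. The family brings ADP and phosphate in for ATP synthesis, sends ATP out, and carries dicarboxylates, amino acids, nucleotides, cofactors, iron-related cargo and glutathione. Its carriers are made in the cytosol and reach the inner membrane through the TIM22 import route.

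Male mice were used, 7 WT and 7 IKO, and 1 library was made per mouse. IKO mice carried villin promoter-driven Cre on an NCoR1 flox/flox background, which deletes the nuclear receptor corepressor Ncor1 in intestinal epithelial cells, and WT mice were littermates with NCoR1 flox/flox and no Cre. All of them were kept on a high-fat diet (HFD, 60% of energy from fat) for 15 weeks. Their age at its start is given as 7 to 8 weeks in the methods, while a legend speaks of mice aged 9 weeks with 3 weeks of chow before the switch. RNA came from scraped ileum mucosa, which the labels call IECs (intestinal epithelial cells).

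The libraries held 14749669 to 21557468 counts. Ncor1 itself was 134.7 ± 31.3 CPM (SD, n = 7) in WT and 50.6 ± 10.97 CPM (SD, n = 7) in IKO mice, with no overlap. CPM are a gene's counts relative to the library total after TMM scaling, a factor per library that sets the bulk of genes level between libraries. Enterocyte markers (7 genes) summed to between 17369 and 90485 CPM in WT and between 43059 and 66191 CPM in IKO mice. Smooth muscle markers (9 genes) reached 15339 CPM in WT 4, against 157 to 200 CPM in the other WT mice and 125 to 1274 CPM in IKO mice. Transcripts of the mitochondrial genome took 50.3% of counts in IKO 4, 23.9% in WT 3 and 3.49% to 10.3% in the other 12 libraries. In such bulk RNA, fewer cells of a type and less RNA per cell cannot be told apart.

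The 3 promoters below are those of Slc25a33 and Slc25a36, a pair of pyrimidine nucleotide carriers whose ratio differed between genotypes, and of Slc25a34, the 1 member whose WT and IKO values did not overlap. The sequences are from RefSeq on GRCm38.p6, run 5′ to 3′ on the gene's own strand (minus for all 3) and stop before the gene model of the count table. Capitals mark GC boxes, CCAAT boxes, E-boxes and nuclear receptor half-sites on either strand.
Slc25a33, chr4:149774278-149774517: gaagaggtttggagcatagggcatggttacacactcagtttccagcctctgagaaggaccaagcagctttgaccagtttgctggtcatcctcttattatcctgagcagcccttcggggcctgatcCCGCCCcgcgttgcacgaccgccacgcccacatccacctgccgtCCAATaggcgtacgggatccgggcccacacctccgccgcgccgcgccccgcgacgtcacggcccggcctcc
Slc25a36, chr9:97111158-97111291: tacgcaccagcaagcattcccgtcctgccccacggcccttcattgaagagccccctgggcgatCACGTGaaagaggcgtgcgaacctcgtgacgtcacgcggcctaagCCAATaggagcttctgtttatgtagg
Slc25a34, chr4:141623835-141624084: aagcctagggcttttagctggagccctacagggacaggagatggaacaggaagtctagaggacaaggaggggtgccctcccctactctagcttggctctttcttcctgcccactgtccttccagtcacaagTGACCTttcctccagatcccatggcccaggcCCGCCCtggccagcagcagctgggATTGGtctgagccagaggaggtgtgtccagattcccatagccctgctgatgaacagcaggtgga

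RefSeq promoter windows (250 bases before to 50 after the start) were matched for 34 of 45 members, and motifs were searched on both strands. The GC box GGGCGG was found in 28 of 34 (82.4%) against 38.2% of 27025 promoters, and the median GC content was 60.2% for members and 52.8% for all promoters. The CCAAT box was in 52.9% of member promoters and 41.1% of all. The E-box CACGTG was in 17.6% against 8.09%, among them Slc25a36 and Slc25a33, where it lies after the start and outside the printed stretch. The half-site AGGTCA, the core recognised by many nuclear receptors, was in 4 member promoters (Slc25a34, Slc25a39, Slc25a45 and Slc25a47), or 11.8% against 18.1% of all. Of the 34, 0 held 2 such half-sites 1 base apart (the DR1 arrangement), against 0.048% of all promoters. These are matches of letters in a short window.

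Levels of the 37 members with enough counts to be tested spanned a 4170-fold range in WT mice by mean FPKM, the deposited counts per kilobase of gene length. Slc25a5 (ANT2), which exchanges ADP for ATP across the inner membrane, stood at the top with 841 FPKM in WT and 1601 FPKM in IKO mice. The mitochondrial phosphate carrier Slc25a3 was second with 131 FPKM and 192 FPKM. The calcium-regulated ATP-Mg/phosphate carrier Slc25a24 came next in WT mice with 65.1 FPKM, just above the dicarboxylate carrier Slc25a10 with 62.9 FPKM. Slc25a15, Slc25a11, Slc25a22, Slc25a39 and Slc25a45 followed between 51.03 and 41.5 FPKM in WT mice. The lowest of these 37 were the glutathione carrier paralog Slc25a40 with 0.536 FPKM and the orphan Slc25a53 with 0.202 FPKM in WT mice.

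**Figure D1:**
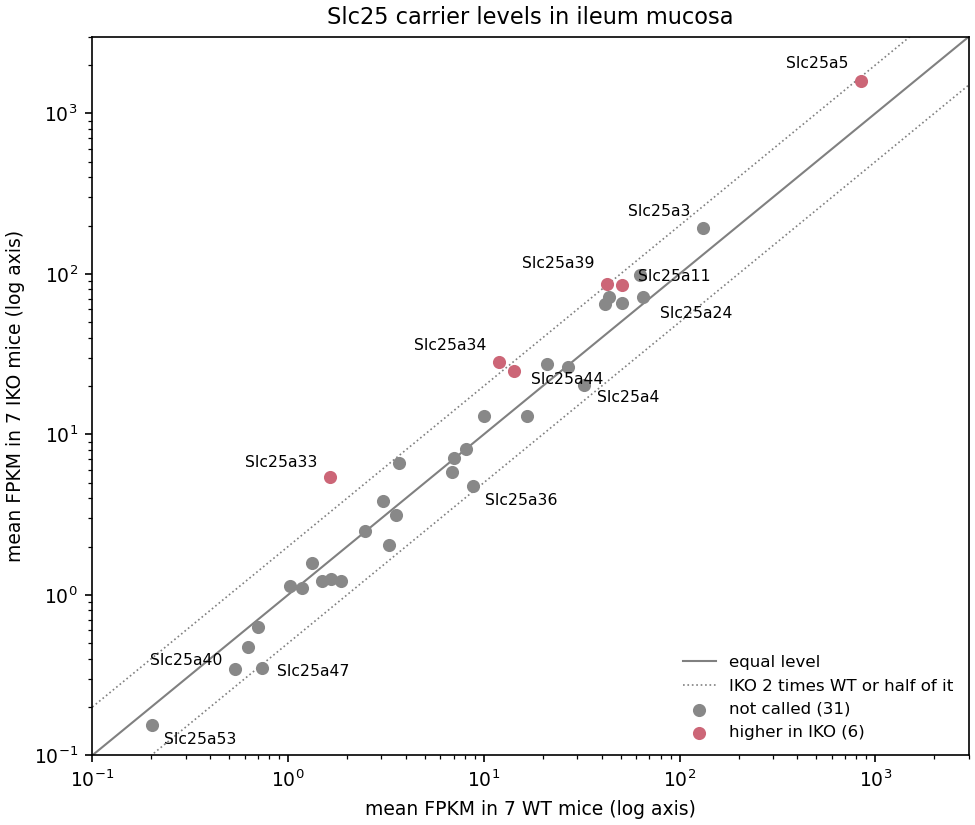
Mean FPKM of the 37 tested Slc25 members in 7 WT mice (x axis) and 7 IKO mice (y axis), both on log axes, with 1 point per gene. Red points are the 6 members called higher in IKO mice, and Slc25a5 lies alone at the upper end with 841 FPKM in WT and 1601 FPKM in IKO mice.

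Genotypes were compared to ask which carriers change when epithelial Ncor1 is deleted under the HFD. Genes that passed a filter on low counts (13846 in all) were tested with edgeR's quasi-likelihood test and Benjamini-Hochberg adjustment, and called at an adjusted p under 0.05. Every adjusted p given for a gene is from this test unless another is named. Of the 45 members, 37 passed the filter. The 8 that did not held 1 to 173 counts over all 14 libraries. They were the testis ADP/ATP carrier Slc25a31 with 10 counts, the oxodicarboxylate carrier Slc25a21 with 1, Slc25a2 with 19, Slc25a18 with 21, Slc25a41 with 1, Slc25a54 with 2, Slc25a43 with 82 and Slc25a27 with 173.

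Of the 37, 6 were higher in IKO mice and 0 lower, with 15 at an unadjusted p under 0.05. The share called was 16.2%, beside 8.67% of all genes tested (4.38% higher, 4.28% lower). The 6 were Slc25a5, Slc25a11, Slc25a33, Slc25a34, Slc25a39 and Slc25a44. By DESeq2, 11 members were higher, the same 6 and also Slc25a3, Slc25a10, Slc25a13, Slc25a22 and Slc25a51. With that method 2 were lower (Slc25a36 and Slc25a40), where 7.62% of all genes were higher and 8.86% lower. The family did not shift as a block. Its log2 fold changes (log2FC, IKO over WT, with standard error SE) were positive for 18 members and negative for 19, with a median of -0.01 beside -0.09 over all genes, where 43.5% lay above 0. The median size of the log2FC was 0.42 for members and 0.39 for all genes. Values of 1 member, Slc25a34, lay above all WT values in all IKO mice, as did 1.83% of all genes, and 0 members lay wholly below, where 1.26% of all genes did.

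TMM factors ran from 0.931 to 1.53 in WT and from 0.579 to 0.967 in IKO mice, so the scaling itself nearly followed the genotype. The highest factor was that of WT 7 and the lowest that of IKO 4. By scaled level, WT 7 was the lowest WT mouse for every called member except Slc25a33. IKO 4 was the highest mouse for Slc25a5, Slc25a11 and Slc25a34, not for the other called members. WT 7 also had the lowest enterocyte marker sum of all mice, 17369 CPM. Leukocyte markers (7 genes) summed to 56.8 to 526 CPM in WT mice, with 453 CPM in WT 7, and to 46.5 to 110 CPM in IKO mice. The part of cell composition in these levels was not tested. With library sizes alone, a setting added after the data were seen, the median log2FC of all genes moved from -0.09 to -0.49. Then 3 members were called higher (Slc25a33, Slc25a34 and Slc25a39) and 8 lower (among them Slc25a16, Slc25a17, Slc25a28, Slc25a36, Slc25a40, Slc25a42 and Slc25a47). Of all genes, 1.41% were higher and 23% (3185 genes) lower with that scaling. The sign of 7 members that were not called turned from positive to negative (Slc25a12, Slc25a15, Slc25a24, Slc25a25, Slc25a26, Slc25a48 and Slc25a51), and no called member changed sign.

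**Figure D2:**
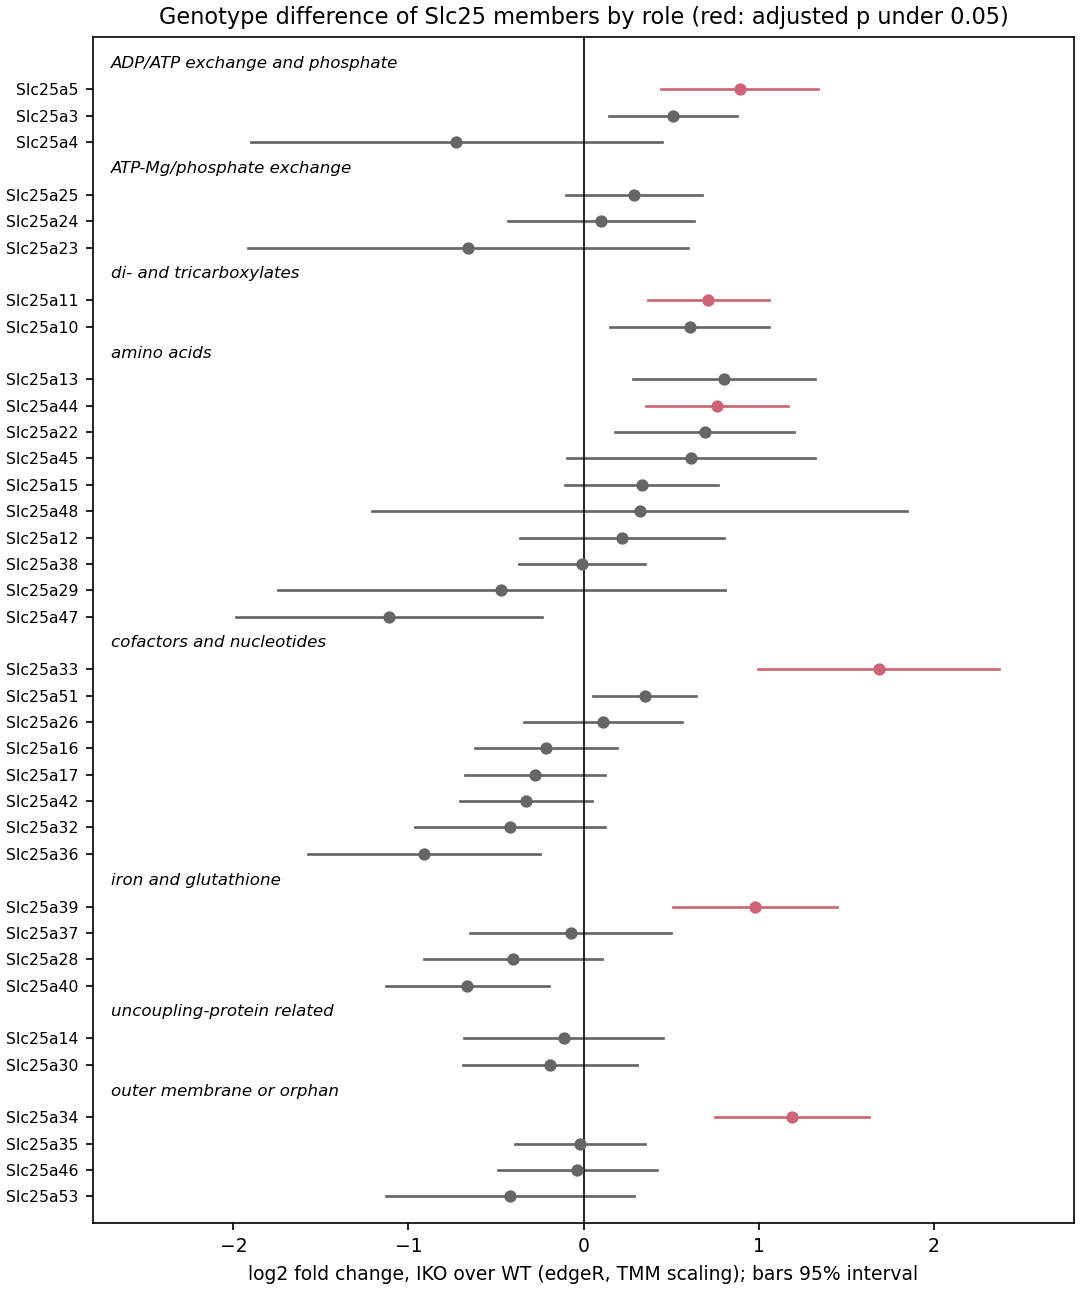
Log2FC of IKO over WT (x axis, edgeR with TMM scaling) for tested Slc25 members, grouped by role, with bars for the 95% interval. The amino acid group includes the orphans Slc25a47 and Slc25a48. Red marks the 6 members at an adjusted p under 0.05, which lie between 0.71 and 1.68, and no member lies on the negative side at that threshold.

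Among the carriers that serve ATP synthesis, 1 of 3 tested was called, and it is the most abundant member. Slc25a5 (ENSMUSG00000016319, chromosome X, 36795651 to 36798807, GRCm38) had a lowest, median and highest level of 996, 1307 and 2013 CPM in WT mice and of 1930, 2564 and 3670 CPM in IKO mice. Of the 7 IKO mice, 6 exceeded every WT mouse. The means were 1414 ± 365 and 2625 ± 545 CPM (SD, n = 7 each), a log2FC of 0.89 (SE 0.21, adjusted p = 0.0205). With library sizes alone it was 0.48 (adjusted p = 0.068), and without WT 3, WT 4 and IKO 4 it was 0.75 (adjusted p = 0.098).

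Slc25a3 (chromosome 10, 91116574 to 91124059) brings in the phosphate that ATP synthase needs and also carries copper. It had 534, 726 and 929 CPM in WT and 910, 1062 and 1391 CPM in IKO mice as lowest, median and highest values, the order used for the genes that follow. All 7 IKO mice stood above the WT median and 5 above the highest WT mouse, but the log2FC of 0.51 (SE 0.17) did not pass the test (adjusted p = 0.071). IKO 4, with the large share of mitochondrial transcripts, was the highest.

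Slc25a4 (ANT1, chromosome 8, 46206797 to 46211284), the ADP/ATP carrier of heart and skeletal muscle, had 17.7, 49.95 and 316 CPM in WT and 21.3, 46.6 and 78.3 CPM in IKO mice. The value of 316 CPM belonged to WT 4, the library with the high smooth muscle markers, and the other WT mice did not exceed 57.0 CPM. Its log2FC of -0.73 (SE 0.55, adjusted p = 0.386) became 0.29 without WT 4 (adjusted p = 0.588). WT 4 was likewise the highest for Slc25a23, with 44.7 CPM where the other 13 mice did not exceed 10.2 CPM. The part of muscle RNA in these values was not tested.

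Slc25a24 (chromosome 3, 109123149 to 109168457), which adjusts the adenine nucleotide content of the matrix, had 117, 265 and 304 CPM in WT and 129, 261 and 313 CPM in IKO mice. The groups overlapped nearly throughout, and the log2FC was 0.10 with a 95% interval from -0.43 to 0.63 (adjusted p = 0.812). Of its tested relatives, Slc25a25 had a log2FC of 0.29 and Slc25a23 of -0.66, and neither passed the test. The gene model of Slc25a23 shares 759 bases with Crb3 on the opposite strand. Over all libraries Crb3 had 28040 counts and Slc25a23 2192.

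The dicarboxylate carriers were both nominally higher, and 1 of them was called. Slc25a11 (ENSMUSG00000014606, chromosome 11, 70644196 to 70647479), the 2-oxoglutarate/malate carrier of the malate-aspartate shuttle, had 83.7, 107 and 143 CPM in WT and 137, 190 and 221 CPM in IKO mice. Of the IKO mice, 5 lay above the highest WT mouse. The means were 109 ± 19.9 and 179 ± 32.5 CPM (SD, n = 7 each), a log2FC of 0.71 (SE 0.16, adjusted p = 0.0175). This call was lost with library sizes alone (0.31, adjusted p = 0.152) and without WT 3, WT 4 and IKO 4 (0.61, adjusted p = 0.092). Its gene model shares 245 bases with Rnf167 on the opposite strand, and the strand setting of the counting was not stated. Over all libraries Rnf167 had 29865 counts and Slc25a11 35711.

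Slc25a10 (chromosome 11, 120491840 to 120499187) exchanges malate and succinate for phosphate. It had 148, 203 and 346 CPM in WT and 257, 340 and 496 CPM in IKO mice. All IKO mice exceeded the WT median and 2 the highest WT mouse, with a log2FC of 0.61 (SE 0.21, adjusted p = 0.080).

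The group of amino acid carriers numbered 12, of which 10 were tested and 1 was called. It includes the orphans Slc25a47 and Slc25a48, relatives of Slc25a45 for which no amino acid substrate was assigned. Slc25a44 (ENSMUSG00000050144, chromosome 3, 88410498 to 88425139), which carries branched-chain amino acids, had 39.2, 51.1 and 73.5 CPM in WT and 61.4, 89.0 and 120 CPM in IKO mice. The 2 lowest IKO values, from IKO 2 and IKO 4, fell within the WT range. The means were 52.04 ± 12.5 and 88.3 ± 21.8 CPM (SD, n = 7 each), a log2FC of 0.76 (SE 0.19, adjusted p = 0.0256). It was the least stable of the 6 calls. The call was lost without WT 4 (log2FC 0.72), without WT 7 (0.69, adjusted p = 0.055), without IKO 1 (0.77, adjusted p = 0.051) and without IKO 5 (0.68, adjusted p = 0.063), and with library sizes alone (0.40, adjusted p = 0.186).

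The other 9 tested members of this group did not pass the test. Citrin (Slc25a13), the aspartate/glutamate carrier known from liver, was closest with 14.3 ± 4.58 CPM in WT and 25.004 ± 8.03 CPM in IKO mice (SD, n = 7 each), a log2FC of 0.80 (adjusted p = 0.052). Its paralog aralar (Slc25a12) had 0.22. The glutamate carrier Slc25a22 had 0.69 (adjusted p = 0.077) and the ornithine carrier Slc25a15 had 0.33. The glycine carrier Slc25a38, which feeds heme synthesis, had -0.01 with a 95% interval from -0.37 to 0.35. The orphan Slc25a47, best known from liver, had the most negative value of the family, -1.11 (SE 0.41, adjusted p = 0.091). It stood at 2.25 CPM in WT and 1.05 CPM in IKO mice.

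The cofactor and nucleotide carriers held the largest fold change of the family beside 6 of 9 negative ones. Slc25a33 (ENSMUSG00000028982, chromosome 4, 149744036 to 149774277), a carrier of pyrimidine nucleotides, had 1.43, 2.58 and 7.69 CPM in WT and 6.98, 9.40 and 15.3 CPM in IKO mice. The WT value of 7.69 CPM came from WT 4, and the other 6 WT mice stood at or below 3.01 CPM, under every IKO mouse. The means were 3.15 ± 2.07 and 10.1 ± 2.61 CPM (SD, n = 7 each), a log2FC of 1.68 (SE 0.32, adjusted p = 0.0084). Without WT 4 it was 2.08 (adjusted p = 0.0003). It rests on 455 counts in WT and 1162 in IKO mice, and the antisense gene Gm13068 that overlaps it had 13 counts in all.

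Slc25a36 (chromosome 9, 97074961 to 97111157) carries pyrimidine nucleotides too. It had 46.8, 76.9 and 195 CPM in WT and 23.4, 51.5 and 60.2 CPM in IKO mice. All 7 IKO mice were below the WT median, and WT 2 alone stood at 195 CPM while the other WT mice did not exceed 93.7 CPM. The log2FC was -0.91 (SE 0.31, adjusted p = 0.074), and -1.19 with library sizes alone (adjusted p = 0.019). The antisense gene Gm16185 within its span had 557 counts over all libraries.

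The other cofactor carriers did not pass the test. The NAD carrier Slc25a51 had a log2FC of 0.35 (adjusted p = 0.109), with 6 IKO mice above the highest WT mouse. The folate carrier Slc25a32 had -0.42, the coenzyme A carriers Slc25a42 and Slc25a16 -0.33 and -0.21, the peroxisomal carrier Slc25a17 -0.28 and the S-adenosylmethionine carrier Slc25a26 0.11.

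Of the iron and glutathione carriers, 1 of 4 was called. Slc25a39 (ENSMUSG00000018677, chromosome 11, 102402985 to 102407946), required for glutathione import into mitochondria, had 94.4, 106 and 156 CPM in WT and 145, 212 and 390 CPM in IKO mice. Of the IKO mice, 6 exceeded every WT mouse. The means were 120 ± 25.8 and 236 ± 84.8 CPM (SD, n = 7 each), a log2FC of 0.98 (SE 0.22, adjusted p = 0.017). It was 0.59 with library sizes alone (adjusted p = 0.046) and 1.00 without WT 3, WT 4 and IKO 4 (adjusted p = 0.0502).

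Slc25a40 (chromosome 5, 8422850 to 8454797), its paralog, was far scarcer, with 2.92, 4.80 and 5.60 CPM in WT and 2.06, 2.95 and 3.84 CPM in IKO mice. All IKO mice were below the WT median, and the log2FC was -0.66 (SE 0.22, adjusted p = 0.068). It passed by DESeq2 (-0.63, adjusted p = 0.025) and with library sizes alone (-1.05, adjusted p = 0.023). The mitoferrins, which bring iron into the matrix, had log2FC values of -0.07 (Slc25a37) and -0.40 (Slc25a28) and did not pass.

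Among the other orphans and the outer membrane members, 1 of 4 tested was called. Slc25a34 (ENSMUSG00000040740, chromosome 4, 141618824 to 141623821), a member with no settled substrate, had 18.9, 31.8 and 47.5 CPM in WT and 56.2, 74.8 and 96.3 CPM in IKO mice. Every IKO mouse stood above every WT mouse. The means were 32.7 ± 10.1 and 74.8 ± 15.9 CPM (SD, n = 7 each), a log2FC of 1.19 (SE 0.21, adjusted p = 0.0048), the smallest adjusted p of the family. Its near relative Slc25a35 had -0.02 with a 95% interval from -0.39 to 0.35. Slc25a46, an outer membrane member tied to mitochondrial shape, had -0.04, and Slc25a53 had -0.42. The uncoupling-protein relatives Slc25a14 and Slc25a30 had -0.11 and -0.19, and none of these passed the test.

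**Figure D3:**
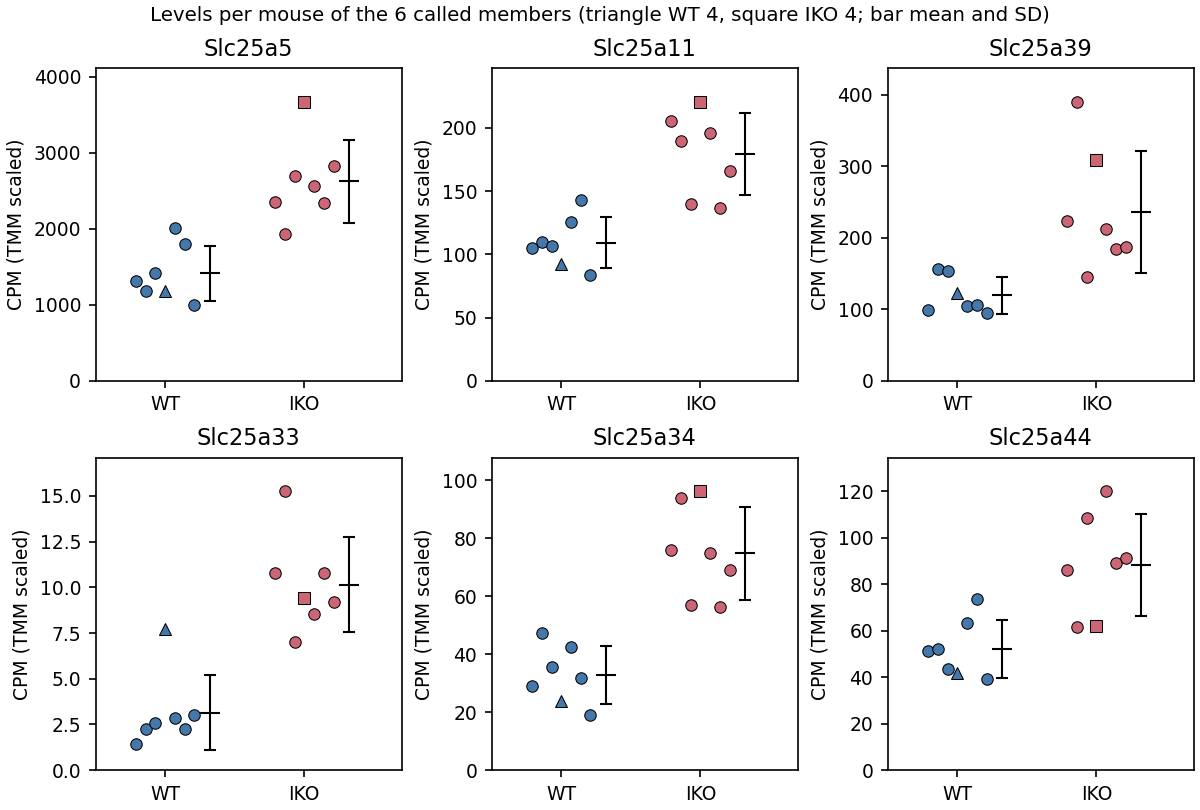
CPM after TMM scaling (y axis, from 0) for each WT and IKO mouse in the 6 called members, with bars for the mean and SD of 7 mice beside the points. Triangles are WT 4 and squares are IKO 4. Slc25a34 values do not overlap between genotypes, and the single high WT point of Slc25a33 is WT 4.

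A ratio of 2 genes within a library needs no scaling between libraries. For close relatives with enough counts, 11 pairs in all, the log2 ratio of counts (0.5 added) was compared by a two-sided exact permutation test over all 3432 divisions of the mice, with adjustment over the 11 pairs. This measure was added after the levels had been seen, so the 2 pairs below restate their levels without the scaling. Slc25a33 over Slc25a36 had a log2 ratio of -4.78 ± 1.01 in WT and -2.13 ± 0.60 in IKO mice (SD, n = 7 each) with no overlap, a difference of 2.65 (exact p = 0.00058, the smallest this design can give, adjusted p = 0.0064). Leaving out 1 mouse at a time gave differences from 2.37 to 2.89.

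Slc25a39 over Slc25a40 had 4.69 ± 0.52 in WT and 6.30 ± 0.71 in IKO mice (SD, n = 7 each), a difference of 1.60 (exact permutation p = 0.0017, adjusted p = 0.0096), with 1 WT mouse inside the IKO range. Slc25a10 over Slc25a11 differed by -0.09 (exact permutation p = 0.615). Slc25a4 over Slc25a5 differed by -1.04 (exact permutation p = 0.135), and by -0.55 when WT 4 was left out. For all 9 pairs other than the first 2, the adjusted p was 0.494 or higher.

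**Figure D4:**
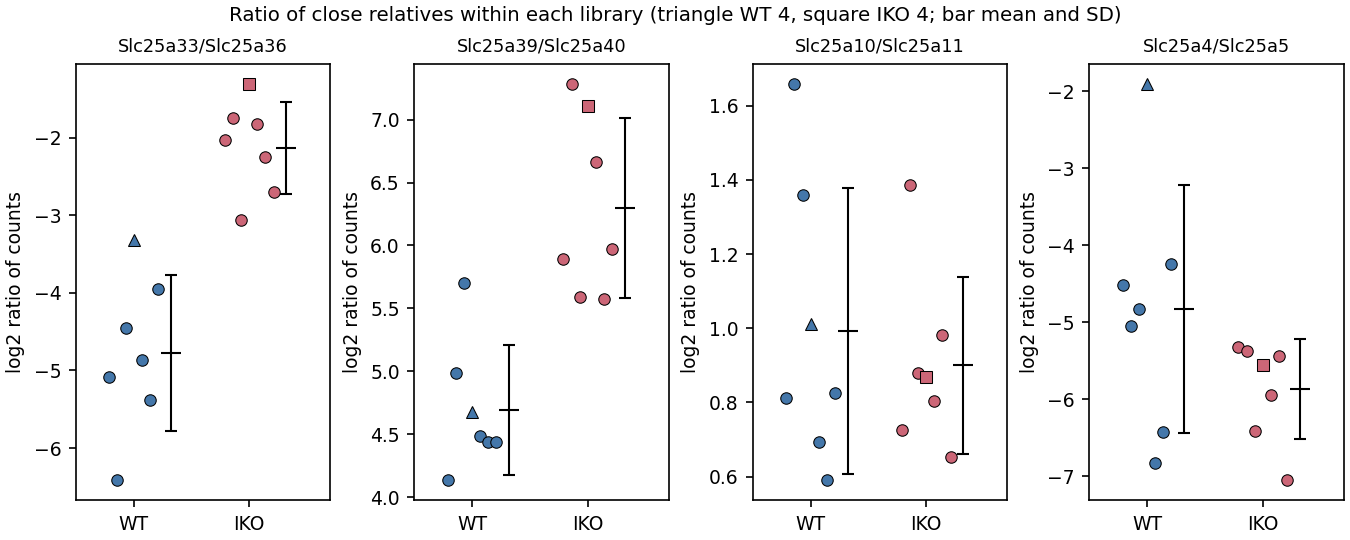
Log2 ratio of counts of 2 related members within each library (y axis) for WT and IKO mice, with bars for the mean and SD of 7 mice. Triangles are WT 4 and squares IKO 4. Slc25a33 over Slc25a36 separates the genotypes (difference 2.65), while Slc25a10 over Slc25a11 differs by -0.09.

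Summed over all 45 members, the family took 3040 to 5230 CPM in WT (median 4495) and 5830 to 8178 CPM in IKO mice (median 6294), with no overlap. Without Slc25a5 the sums were 2044 to 3724 CPM and 3599 to 4508 CPM, which overlapped. As a plain share of the counts of nuclear genes, the family made up 0.479% to 0.589% in WT mice (median 0.538%). In IKO mice it made up 0.572% to 0.951% (median 0.610%), and 0.631% at most without IKO 4. These plain shares, which use no TMM factor, overlapped between genotypes. Slc25a5 alone took 24.1% to 38.5% of the family's scaled counts in WT and 33.1% to 44.9% in IKO mice. Stem and crypt markers had overlapping sums of 102 to 335 CPM in WT (median 262) and 78.4 to 207 CPM in IKO mice (median 136). None of the 5 was called. Enterocyte marker sums, which also overlapped, had medians of 46350 CPM in WT and 58705 CPM in IKO mice. The part of either in the family's levels was not tested.

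Genes that work with or beside the carriers were taken from lists by function, and their counts stand beside 8.67% of all genes called (4.38% higher, 4.28% lower). The share called was 7.69% in the import route, near that background. It was 14.3% in iron-sulfur and heme synthesis and 13.3% among other mitochondrial carriers, with names outside the rule. The shares were 50% for the shuttles, 42.9% for coenzyme A synthesis, 33.3% for outer membrane channels and 16.7% for regulators. For urea cycle and ornithine genes it was 0%. With 3 to 15 tested genes in each of these lists, every share rests on few genes. The malate-aspartate shuttle runs through Slc25a11 and an aspartate/glutamate carrier, Slc25a12 or Slc25a13. The glycerol phosphate shuttle needs no Slc25 carrier. Both shuttles pass reducing equivalents from the cytosol to the respiratory chain. Of their 6 genes, 3 were higher and 0 lower, and 1 was called without WT 3, WT 4 and IKO 4, and 2 without WT 4, IKO 1 or IKO 5 alone. The 3 were Got1 (log2FC 1.06, adjusted p = 0.011), Mdh1 (0.91, adjusted p = 0.024) and Gpd1 (0.94, adjusted p = 0.016), all enzymes of the cytosolic side, while mitochondrial Mdh2 had 0.71 (adjusted p = 0.071) and Got2 0.33 (adjusted p = 0.484).

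Of 13 genes of the import route into the inner membrane, 1 was higher, the small chaperone Timm8b (0.62, adjusted p = 0.044). That count was 5 by DESeq2 and 0 with library sizes alone, and it fell to 0 when any 1 of WT 1, WT 3, WT 4, WT 5, WT 7, IKO 1, IKO 2, IKO 4, IKO 5 or IKO 7 was left out. Of the 3 outer membrane channels, Vdac1 was higher (0.54, adjusted p = 0.035). Here the count was 2 by DESeq2 and 0 with library sizes alone, and it fell to 0 without any 1 of WT 1, WT 3, WT 4, WT 7, IKO 1, IKO 2, IKO 4, IKO 5 or IKO 7. Of 15 tested genes of other mitochondrial carriers, with names outside the rule, 2 were higher, among them Letm1 (0.51, adjusted p = 0.046). That count was 1 in 11 of the 14 fits that left out a mouse. None of the 8 tested urea cycle and ornithine genes was called by edgeR, with 3 at an unadjusted p under 0.05, and 1 was called by DESeq2.

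In iron-sulfur and heme synthesis 2 of 14 were higher, among them Alas1, the first enzyme of the heme pathway, at 1.55 (adjusted p = 0.00055), and 1 was called in 8 of the 14 fits that left out a mouse. In coenzyme A synthesis Ppcs (0.84) and Coasy (0.65) were higher and Pank4 (-0.63) lower, of 7 tested, and 0 were called without WT 3, WT 4 and IKO 4. Among 6 regulators of mitochondrial genes, Ppara was higher (1.55, adjusted p = 0.029), and the count fell to 0 without WT 7, IKO 3 or IKO 4. Ppargc1b, a coactivator of mitochondrial genes, had 0.73 (adjusted p = 0.091) with all 7 IKO mice above the WT median. Ppargc1a (-0.12), Esrra (0.07), Nrf1 (0.07) and Tfam (-0.18) did not pass the test. Both carriers left out by the rule were higher, the citrate carrier Slc25a1 with 0.95 (adjusted p = 0.0086) and the carnitine carrier Slc25a20 with 1.37 (adjusted p = 0.00029).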

How the data were processed

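According to the study's methods and the submitters' processing notes, NEBNext libraries were sequenced as 150-bp paired-end reads, aligned to mm10 with HISAT2 2.0.5 and counted with featureCounts 1.5.0-p3. Filters and strand setting were not stated. The deposited counts are raw reads per gene, whole numbers. The deposited FPKM of the authors equal counts per gene length divided by DESeq2 size factors and 1 constant, as checked on the values, and were used for levels between genes. Genotypes came from sample titles, with KO read as IKO.

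Counts were filtered with filterByExpr, scaled with TMM and fitted with edgeR 4.0.16 (glmQLFit, glmQLFTest, genotype only) in R 4.3.3, with Benjamini-Hochberg adjustment over 13846 genes. A standard error is the log2 fold change divided by the square root of F. The depth was 14749669 to 21557468 counts per library. The fit was tested on simulated counts.

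Named in full were called members, the 3 with the highest FPKM and the paralogs of these. The members and lists were chosen with earlier results of these data known. Alternatives were DESeq2 1.42.0, RLE, limma 3.58.1 on log2 FPKM (pseudocounts 1 and 0.1, minimum 0.5), limma-voom, other filters, mitochondrial transcripts left out, a replicate block, libraries left out, and library sizes alone, the last added after seeing the data. Protein sequences were not used here, and values of a few genes were left out of the text.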

Additional observations from a re-analysis of the deposited data

Results flagged for a closer look

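Of 74 groups of 7 mice (37 members, 2 genotypes), 8 held a mouse set apart from the rest by a gap, as a share of the group's range, above Dixon's 95% limit. For independent, normally distributed values that limit would flag about 1 in 20, or 3.7 groups. The values here were CPM of genes measured in the same mice, so 3.7 is no exact chance level. In all 8 groups the mouse stood on the high side. WT 4 was the high mouse in 3 of them, with a gap of 0.868 of the range for Slc25a4, 0.927 for Slc25a23 and 0.748 for Slc25a33. WT 2 was the high mouse for Slc25a36 (195 CPM, next 93.7, gap 0.684) and for Slc25a37 (340 CPM, next 195, gap 0.574). For Slc25a26, WT 7 stood at 6.65 CPM above a next value of 5.13 (gap 0.643), and IKO 2 at 9.61 CPM above 5.25 (gap 0.826). For Slc25a3, IKO 4 stood at 1391 CPM above 1115 (gap 0.573).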

How the results depend on the processing

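Slc25a33 and Slc25a34 were called higher under all 26 alternatives, with log2 fold changes of 1.28 to 2.12 and 0.82 to 1.31, and Slc25a39 under 25, missing without WT 3, WT 4 and IKO 4 (1.00, adjusted p = 0.0502). Slc25a11 was called under 23, Slc25a5 under 21 and Slc25a44 under 18. Slc25a5 also missed with no filter on low counts, in edgeR (0.90, adjusted p = 0.081) and in limma on FPKM (0.94, adjusted p = 0.072). The count of members higher was 11 by DESeq2, 3 with library sizes alone, 2 without the 3 libraries and 5 to 8 with 1 mouse left out. Members lower numbered 2 by DESeq2, 2 by limma-voom, 1 with at least 10 counts in every library and 8 with library sizes alone. Over all genes, the 1200 calls became 2571 by DESeq2, 508 with no filter, 614 by limma with no filter, 1889 by limma-voom, 433 without the 3 libraries, 3380 with library sizes alone and 515 to 1371 with 1 mouse left out.

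The labels give both genotypes numbers 1 to 7. Deviations of same-numbered mice correlated at -0.31 to 0.23, and 1 of 7 mice correlated best with its own number, so the numbers were not taken to pair mice. With the replicate block, 362 genes and 3 members (Slc25a33, Slc25a34 and Slc25a39) were called. Under the block, the lists of shuttles, import, channels, other carriers, coenzyme A and regulators had 0 calls and heme synthesis 1. Under the block the values of Slc25a23, Slc25a35 and Slc25a37 were 0.0085, 0.012 and 0.035.

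No called member changed sign. By limma-voom, Slc25a4 was at 0.24, Slc25a23 at 0.20, Slc25a26 at -0.046 and Slc25a37 at 0.19. Without the 3 libraries, Slc25a4 was at 0.21, Slc25a23 at 0.50 and the ratios of Slc25a23 to Slc25a24 and Slc25a25 differed by 0.45 and 0.27. With library sizes alone, Slc25a12 was at -0.26, Slc25a15 at -0.032, Slc25a24 at -0.30, Slc25a25 at -0.11, Slc25a26 at -0.31, Slc25a48 at -0.16 and Slc25a51 at -0.017. By DESeq2 and RLE, Slc25a35 was at 0.014 and 0.010 and Slc25a38 at 0.028 and 0.022. By limma on FPKM with pseudocounts of 1 (with or without the filter) and 0.1, Slc25a35 was at 0.029 and 0.046, Slc25a37 at 0.044 and 0.048, and Slc25a38 at 0.016 and 0.017. With no filter in edgeR, Slc25a38 was at 0.0063.

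With 1 mouse left out, sign changes occurred within the ranges -0.90 to 0.29 for Slc25a4, -0.82 to 0.55 for Slc25a23, -0.012 to 0.21 for Slc25a24, -0.080 to 0.18 for Slc25a26, -0.082 to 0.040 for Slc25a35, -0.18 to 0.21 for Slc25a37, -0.0995 to 0.058 for Slc25a38 and -0.17 to 0.060 for Slc25a46. Ratio differences ranged from -0.17 to 0.018 for Slc25a10 over Slc25a11, from -0.041 to 0.14 for Slc25a14 over Slc25a30, from -0.39 to 0.50 for Slc25a23 over Slc25a24 and from -0.59 to 0.26 for Slc25a23 over Slc25a25. The cause of these changes was not tested. The 8 members below the filter were fitted with no filter by edgeR and limma, and 1 of them by DESeq2, with 0 called and 1, 0 and 1 at an unadjusted p under 0.05.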

Other observations

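Slc25a48, a relative of Slc25a45 and Slc25a47, varied widely between mice of both genotypes, with 34.8 ± 34.5 CPM in WT and 43.5 ± 31.5 CPM in IKO mice (SD, n = 7 each). The 6 mice with the lowest level (WT 2, WT 5, WT 6, IKO 1, IKO 2 and IKO 7) had 4.70 to 19.1 CPM, and their summed ileal enterocyte markers (3 genes) were 246 to 1250 CPM. The other 8 mice had 28.3 to 95.4 CPM, with marker sums of 2650 to 7971 CPM. This description was made after the values were seen, and both genotypes were in each set of mice.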
